A study of Caenorhabditis elegans with 2 samples.

Results

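Of the 1083 peaks called on both replicates together, 262, or 24.2%, had a summit in the promoter of exactly 1 protein-coding gene of C. elegans and away from small RNA genes. They were selected on the measured summit position alone: the summit lay at most 500 bp before or 200 bp after the annotated start of a transcript, and over 250 bp from any tRNA, snRNA, snoRNA or miRNA gene. These member peaks belonged to 257 genes, because W01D2.3 had 3 of them and ubq-1, Y17D7C.2 and daf-19 had 2 each. The other peaks of the list fell in the promoters of 2 or more genes (131 peaks), in no promoter (354 peaks) or within 250 bp of such an RNA gene (336 peaks).

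The peaks came from chromatin immunoprecipitation with sequencing of FLT-1, encoded by the gene now named baz-2, in whole early embryos of strain OP797. This strain carries the integrated array wgIs797, a fosmid with flt-1 joined to TY1, EGFP and 3xFLAG tags and with a wild-type unc-119 copy, in the unc-119 (tm4063) background. The embryos, 1 hour old and obtained by egg bleaching, formed 1 group with 2 biological replicates, and anti-GFP antibody was used on sonicated chromatin. The peak lists gave no read counts, so the depth behind each peak is unknown, all embryonic cell types were measured together, and no control library was used here.

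FLT-1 is the worm relative of the vertebrate BAZ2 proteins, large subunits of chromatin remodelling complexes built around an ISWI ATPase, which slides nucleosomes along DNA. Such proteins carry a bromodomain and a PHD finger, modules that in other proteins read acetylated or methylated histone tails. In C. elegans most mRNAs are trans-spliced to a short leader, so an annotated transcript start is often the splice site of the leader and the site of initiation lies further upstream. Many worm genes with housekeeping roles also sit in operons or share a promoter with a divergent neighbour, and a peak there cannot be given to 1 gene.

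The summit windows of 10 member peaks show the DNA on which the results below turn. The first 8 are the strongest member peaks that lay over a peak of both replicates and whose window of 50 bp on either side of the summit met no annotated exon of a protein-coding gene. The last 2, gly-13 and bet-2, are lower peaks of the same kind, chosen after their values were seen. Each is written 5′ to 3′ along the strand of its gene, from the RefSeq sequence of WBcel235, and capitals mark 5 recurrent words of 7 letters, on either strand, whose letters and shares are given with the sequence content of the peaks.
atx-2: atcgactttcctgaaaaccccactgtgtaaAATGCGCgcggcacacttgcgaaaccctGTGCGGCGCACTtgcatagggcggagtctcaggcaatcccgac
rpl-3: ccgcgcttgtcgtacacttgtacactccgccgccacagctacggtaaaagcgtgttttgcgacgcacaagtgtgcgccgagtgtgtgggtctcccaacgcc
T13C5.6: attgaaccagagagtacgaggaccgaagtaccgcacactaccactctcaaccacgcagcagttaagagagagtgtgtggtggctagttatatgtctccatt
tasp-1: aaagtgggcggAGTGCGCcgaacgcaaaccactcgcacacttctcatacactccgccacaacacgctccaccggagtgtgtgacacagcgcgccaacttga
pcrg-1: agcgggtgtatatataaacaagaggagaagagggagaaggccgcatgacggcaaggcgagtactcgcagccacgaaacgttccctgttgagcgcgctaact
atad-3: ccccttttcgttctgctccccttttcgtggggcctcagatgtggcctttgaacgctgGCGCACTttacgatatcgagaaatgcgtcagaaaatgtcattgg
ZK816.3: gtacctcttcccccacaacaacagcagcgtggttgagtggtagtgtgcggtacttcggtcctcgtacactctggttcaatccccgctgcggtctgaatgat
C46F11.4: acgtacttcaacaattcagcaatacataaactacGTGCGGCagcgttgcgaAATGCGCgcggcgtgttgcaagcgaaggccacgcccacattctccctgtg
gly-13: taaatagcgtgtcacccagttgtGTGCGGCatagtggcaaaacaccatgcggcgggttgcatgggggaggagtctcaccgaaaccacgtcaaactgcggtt
bet-2: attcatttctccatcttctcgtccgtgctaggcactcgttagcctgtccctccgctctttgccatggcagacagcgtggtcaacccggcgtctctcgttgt

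The windows of atx-2 (chrIII:10461264-10461364), rpl-3 (chrIII:3867528-3867628), tasp-1 (chrIII:10759187-10759287), pcrg-1 (chrII:7200191-7200291), atad-3 (chrII:10248503-10248603), ZK816.3 (chrX:3348022-3348122) and bet-2 (chrX:10568798-10568898) are on the plus strand. Those of T13C5.6 (chrX:6207806-6207906), C46F11.4 (chrIII:3664382-3664482) and gly-13 (chrX:9296732-9296832) are on the minus strand. The atx-2 window held 3 of the 5 words and C46F11.4 held 2, tasp-1, atad-3 and gly-13 held 1 each, and rpl-3, T13C5.6, pcrg-1, ZK816.3 and bet-2 held none. The windows of T13C5.6 and ZK816.3, both on the X chromosome, shared an identical run of 33 bases, which reads in opposite directions relative to the 2 genes. These windows and that of pcrg-1 overlapped annotated non-coding RNA genes of a class that the choice of members did not use.

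The 12 strongest member peaks had signals of 166 to 283. Peak signal is the authors' value for the height of a peak, on a scale that the labels and file lists do not describe, and replicate values are those of the ranked lists of each replicate. The strongest peak belonged to atx-2, the worm ataxin-2, an RNA-binding regulator of translation, with a signal of 283 on both replicates together, 139 in replicate 1 and 144 in replicate 2, and its summit lay 75 bp upstream of the start. At rpl-3, which encodes the large-subunit ribosomal protein uL3, the signal was 271 together, 113 in replicate 1 and 150 in replicate 2, with the summit 276 bp upstream. At T13C5.6, a member of the phosphatidic acid phosphatase family per RefSeq, it was 268 together, 124 and 140 in the replicates. These 3 peaks were high in both replicates.

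For idhg-1, a subunit of the mitochondrial isocitrate dehydrogenase of the citric acid cycle, the signal was 250.9 together, 122 in replicate 1 and 122 in replicate 2, 47 bp upstream of the start. For tasp-1, the relative of the protease taspase, it was 244 together, 121 and 123 in the replicates, 70 bp upstream. For pcrg-1, the homologue of the parkin coregulated gene, it was 214 together, 110 and 104 in the replicates. Each of these 3 had nearly the same value in both replicates. K05C4.2, a homologue of jagunal, followed with 207, and atad-3, which encodes an ATPase of the mitochondrial inner membrane, with 200.5. Then came ZK816.3 with 199, the RNA helicase gene C46F11.4 with 174, B0495.9 with 171 and eif-3.C, a subunit of translation initiation factor 3, with 166. The last of these was less even, at 111 in replicate 1 and 58.9 in replicate 2. All 12 lay over a thresholded peak of both replicates.

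The weakest member peak belonged to F54F2.6, with a signal of 7.98 together, 22.1 in replicate 1 and 20.4 in replicate 2, and its summit lay 95 bp downstream of the start in a coding exon. Next were the more distal of the 2 peaks of daf-19, the RFX transcription factor of ciliated neurons, with 9.05, and the more distal of the 2 peaks of Y17D7C.2, with 19.5. Both of these overlapped a stronger member peak of the same gene (54.9 at daf-19 and 70.3 at Y17D7C.2). In all, 4 member peaks overlapped another peak of the list. The other low values were 33.9 at sor-1, a regulator of Hox gene expression, and 35.05 at sec-16A.2, a homologue of the SEC16 factor of vesicle budding.

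Among gene lists drawn by symbol, those of protein synthesis, energy metabolism and protein folding held the largest shares of member genes. Over all 19783 genes with promoter sequence of their own, 257, or 1.30%, were member genes, against 125, or 0.632%, by the same rule on the list of replicate 1 and 178, or 0.900%, on that of replicate 2. The replicate counts given below for a list are its genes that met the rule there, member genes or not. Cytosolic ribosomal protein genes had 9 member genes of 81 (11.1%), with 6 in replicate 1 and 5 in replicate 2. They were rpl-3, rps-28 (signal 159), rpl-35 (141), rps-24 (105), rps-3A (103), rpl-11.2 (84.2), rpl-14 (55.6), rps-11 (51.9) and rsl-24D1 (89.1), and the last of these encodes a putative ribosome biogenesis protein per RefSeq. A further 14 genes of the ribosomal list had a peak in a promoter shared with another gene. Translation factors had 4 of 44 (9.09%), with 1 in replicate 1 and 2 in replicate 2: eif-3.C, iff-2 (83.3), which encodes an eIF5A, the cap-binding eIF4E gene ife-4 (60.7) and eif-3.E (55.6). Another 4 translation factor genes had a peak in a shared promoter. Mitochondrial ribosomal proteins had 0 of 67 and aminoacyl-tRNA synthetases 0 of 30, with 5 and 1 genes that had a peak in a shared promoter, so the share was not common to every list of translation genes.

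Nuclear genes of oxidative phosphorylation had 7 member genes of 85 (8.24%), 3 in replicate 1 and 4 in replicate 2. The strongest were the cytochrome c oxidase subunit gene cox-5B (128), the cytochrome c1 gene cyc-1 (103), the complex I genes nuo-2 (83.8) and nduf-11 (67.3), and cox-5A (60.02). Mitochondrial import had 3 of 40 (7.50%), the small TIM chaperone gene ddp-1 (107), the outer-membrane receptor gene tomm-20 (95.9) and the inner-membrane channel gene timm-23 (58.3). Chaperones had 8 of 100 (8%), led by the cytosolic HSP70 gene hsp-1 (103), the J-domain gene dnj-9 (90.4), the chaperonin subunit gene cct-2 (78.2), dnj-13 (72.8) and bag-1 (70.4). By the same rule on the replicate lists, 4 chaperone genes were found in replicate 1 and 6 in replicate 2, member genes or not.

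Genes of the nucleus and of cell division formed the next group. Cell cycle, replication and spindle genes had 12 of 226 (5.31%), led by cdc-48.1 (145), an ATPase that extracts ubiquitinated proteins, the cohesin loader gene scc-2 (128), the alpha-tubulin gene tba-2 (119.5), the spindle checkpoint gene mdf-1 (66.5) and the BRCA1 homologue brc-1 (62.4). Nuclear pore genes had 3 of 46 (6.52%), npp-6 (146), npp-18 (118) and npp-8 (91.2), and each of the 3 had a member peak over a peak of both replicates. Histone genes had 4 of 81 (4.94%), his-37 (88.2), his-59 (84.4), the linker histone gene hil-2 (79.5) and his-1 (63.3). The summits of his-59 and his-1 lay in coding sequence, 460 and 461 bp upstream of the start. The nearest upstream genes, both divergent, were only 257 and 237 bp away, so these 2 peaks lay beyond the near end of the neighbour. Histone genes lie in clusters of near-identical copies, so reads at these promoters could have been split between copies. Another 19 histone genes had a peak in a shared promoter.

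Chromatin genes had 6 of 178 (3.37%), swsn-3 (118), jmjc-1 (73.2), the ISWI complex subunit gene nurf-1 (59.7), the histone methyltransferase gene met-1 (58.1), the bromodomain gene bet-2 (56.7) and the methyltransferase gene set-2 (50.9). Splicing and 3′ end processing had 6 of 132 (4.55%), with cpf-2 (94.1), cpsf-1 (80.2), hel-1 (71.1), prp-8 (66.1) and mog-3 (65.5) the strongest. RNA polymerase and general transcription genes had 4 of 107 (3.74%), rpb-11 (114.4), rpac-19 (87.8), the Mediator gene mdt-26 (80.4) and ints-4 (61.1). Ubiquitin and proteasome genes had 6 of 140 (4.29%), with the highest median signal of any list with more than 3 member genes, 127. They were cdc-48.1, counted here as well, the E3 ligase genes wwp-1 (136) and eel-1 (131), uba-5 (124), ufd-3 (72.2) and the polyubiquitin gene ubq-1 (62.2 and 61.4 at its 2 peaks). Vesicle traffic had 11 of 226 (4.87%), led by the translocon gene sec-61.G (128), the adaptor gene apb-1 (105), tmed-10 (75.1), vps-4 (73.0) and nsf-1 (71.6), and this list also took bet-2 by its symbol. Small RNA and germ granule genes had 4 of 147 (2.72%), vig-1 (95.6), puf-9 (85.1), ekl-6 (64.5) and rsd-3 (44.6).

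The remaining lists had shares of member genes from 0 to 1.79%, against 1.30% over all genes. Chemoreceptor genes had 0 of 1371, F-box and MATH-BTB genes 0 of 410, cuticle collagens 0 of 180 and neuropeptides and insulins 0 of 149. The F-box list, drawn by symbol, did not hold the member gene fbxl-2 (signal 139), an F-box domain protein per RefSeq. In shared promoters, 4 chemoreceptor genes, 2 F-box or MATH-BTB genes and 1 collagen gene had a peak, and 0 neuropeptide or insulin genes. C-type lectins had 1 of 239, clec-266, with a signal of 36.8. DNA-binding transcription factors had 8 of 567 (1.41%), near the share over all genes. They were the bZIP gene zip-2 (80.1), the MyoD homologue hlh-1 (62.9), dmd-7 (62.9), the nuclear receptor genes nhr-32 (60.9) and nhr-25 (47.3), daf-19 (54.9 and 9.05), ceh-39 (50.6) and eor-2 (40.6). Of these 8 genes, zip-2 alone lay over a peak of both replicates. The list did not hold the member gene mdl-1 (105), a Mad-like protein per RefSeq, whose peak also lay over both. Kinases and phosphatases had 2 of 112 (1.79%), lit-1 (58.8) and kin-29 (40.6), ribosome biogenesis had 1 of 73 (1.37%), bop-1 (75.8), and genes without a genetic name had 69 of 8599 (0.802%). The kinase list did not hold the member kinase genes mrck-1 (110) and pdhk-2 (92.3). The biogenesis list left out rrsr-1 (84.0) and F10E9.11 (95.4), a ribosome biogenesis and an rRNA-processing protein per RefSeq. The shares of these lists therefore do not cover all genes of those kinds. Several lists rest on symbols alone and overlap, and the counts are descriptions without a test.

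**Figure D1:**
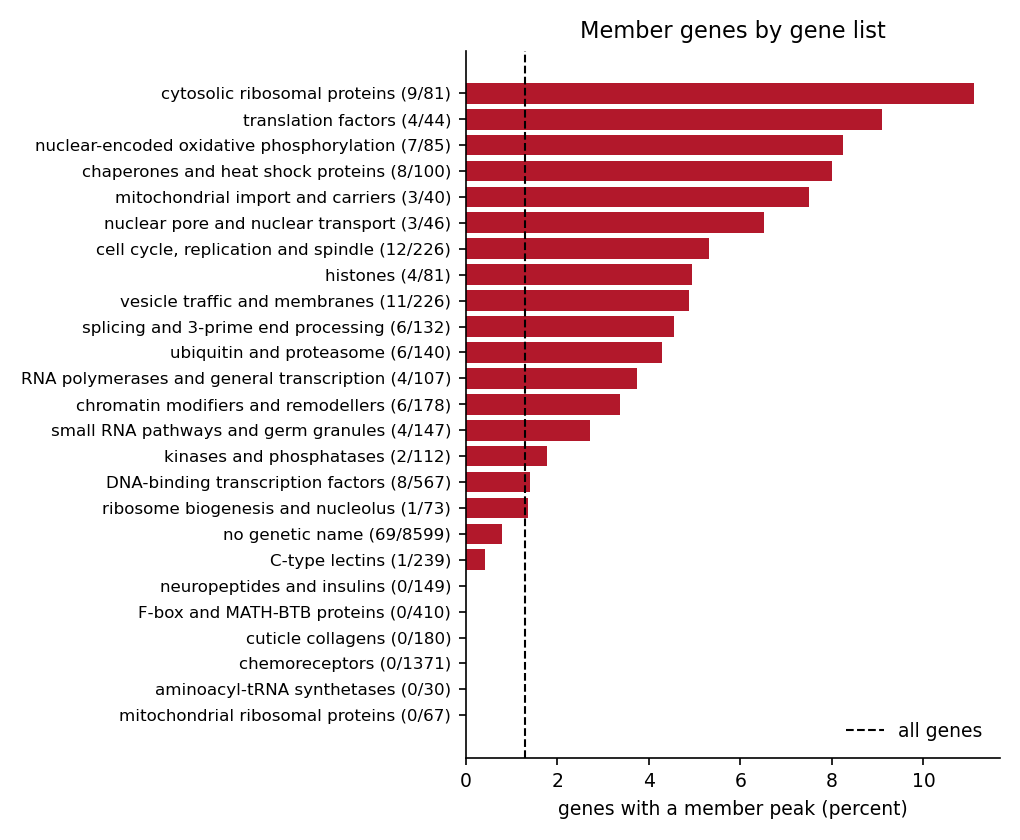
Share of genes with promoter sequence of their own that had a member peak, in percent on the horizontal axis, for each gene list (member genes and genes counted in parentheses), with the dashed line at 1.30% for all genes. The list of ribosomal protein genes reaches 11.1%, and the lists of chemoreceptors, collagens, F-box genes and neuropeptides, drawn by symbol, are at 0.

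Few member peaks were among the highest of the list. Their signal had quartiles of 58.1, 70.6 and 90.9, against 58.2, 75.4 and 122 for all 1083 peaks, and 111 of the 262 were at or above the median of the list. The values were close to those of peaks in shared promoters (60.1, 72.0 and 94.8), and the median was above that of peaks in no promoter (62.2). Peaks near RNA genes had a median of 134. Of the 20 strongest peaks of the list none was a member, and of the 100 strongest 5 were members and 81 lay near an RNA gene. The narrower members were the higher ones: 231 members were exactly 230 bp wide, and the 30 narrower ones had a median signal of 139 against 66.5 for those of 230 bp. The remaining member, T13C5.6, was wider.

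Support from the replicates followed the height of the pooled peak. Of the 262 members, 75 (28.6%, exact 95% interval 23.2 to 34.5) lay over a thresholded peak of both replicates by at least 1 bp, 44 (16.8%) of replicate 1 alone, 77 (29.4%) of replicate 2 alone and 66 (25.2%) of neither. The interval covers counting error only. The share over both was 27.5% for shared promoters, 24.3% for peaks in no promoter and 70.5% for peaks near RNA genes. Among the 66 members of highest signal 57 lay over both lists and 0 over neither, while among the 66 of lowest signal 2 lay over both and 38 over neither. Since the pooled signal is made from the same libraries as the replicate lists, this is a description of how the lists relate.

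Members over neither list still had entries in the ranked lists, with median signals of 30.9 in replicate 1 and 26.04 in replicate 2, against 55.7 and 52.2 for those over both. The strongest of them was 1 of the 3 peaks of W01D2.3, with 85.5 together and no entry in replicate 2. It was followed by W03H9.2 (74.2), the signal recognition particle gene F37F2.2 (71.8), the succinyl-CoA ligase gene suca-1 (71.1) and Y76B12C.6 (70.8). The conservative list, also made from both replicates, held 200 of the members (76.3%). By gene, 74 genes met the rule in both replicate lists, and all 74 were member genes. A further 38 genes met it in a replicate list without being member genes.

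The 2 replicates ranked the members differently. Of the 262, 259 matched an entry in the ranked list of replicate 1 and 260 in that of replicate 2, with medians of 36.7 and 36.9. Over the 257 members with both, the signal was higher in replicate 1 for 141, the rank correlation (Spearman's rho) was 0.364 and the correlation of log10 signals (Pearson's r) 0.462, as a description across peaks that share their libraries and were called on both together. The largest differences in rank towards replicate 1 were at kin-29, a salt-inducible kinase (rank 673 against 24788, signal 43.8 against 9.73), the weaker daf-19 peak (813 against 22829, signal 38.7 against 10.2) and the ribosome production factor gene Y54E10A.10 (705 against 16966, signal 42.3 against 11.7). The entry of replicate 1 at daf-19 overlapped both of its member peaks and was counted for each, and at the stronger peak the ranks were 813 and 2407. Towards replicate 2 they were at the lipid-binding gene lbp-4 (34450 against 862, signal 11.0 against 33.2), R107.5 (18483 against 341, signal 14.9 against 59.1) and enu-3.3 (15016 against 869, signal 16.02 against 32.9). The first 5 of these 6 lay over the thresholded list of 1 replicate alone, and enu-3.3 over neither.

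**Figure D2:**
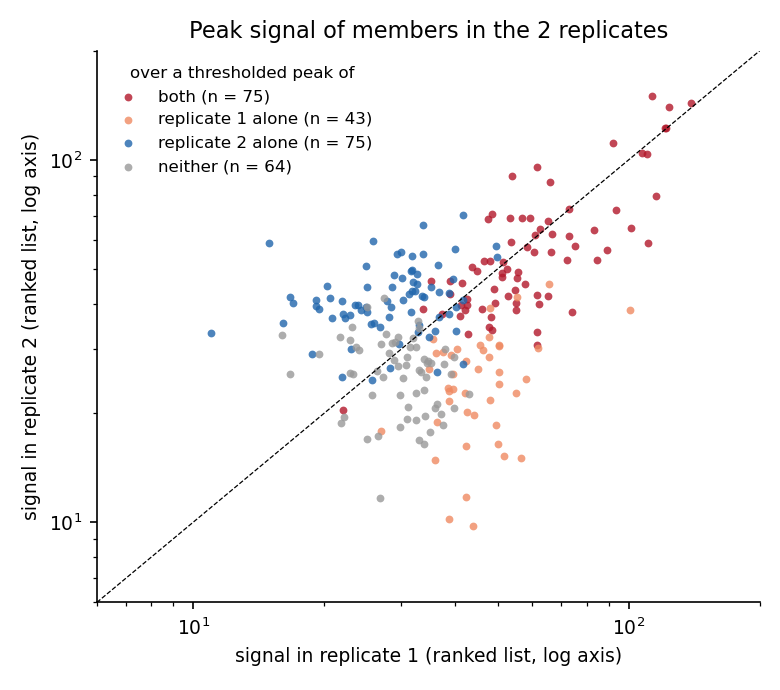
Peak signal of each member in the ranked list of replicate 1 (horizontal) and replicate 2 (vertical), both on log axes, for the 257 members with a value in both, coloured by the thresholded replicate lists they overlap. The points over both lists reach 139 and 150, and those over 1 list alone spread to either side of the dashed line of equal signal.

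Summits lay upstream of the annotated start. The offset ran from 493 bp upstream to 177 bp downstream, with quartiles of -304, -186 and -101 bp. Upstream summits numbered 247 of 262 (94.3%), while 69.4% of the promoter sequence that counts for 1 gene alone lies upstream. Entries of the pooled ranked list that met the same rule but were not in the thresholded list, 7756 in all, followed that sequence, with 70.6% upstream and a median of -130 bp. The densest stretch was 200 to 151 bp upstream, with 44 members and 41.0 per Mb of such sequence, against 16.99 per Mb over the whole window. From 0 to 49 bp downstream there were 7 members, 5.76 per Mb, and each of the 3 bins beyond held 3 or fewer.

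The 66 strongest members had their median summit at -239 bp with 0 at or downstream of the start, and the 66 weakest at -183 bp with 7 downstream. The 15 summits at or downstream of the start had signals of 7.98 to 80.4. Besides F54F2.6 they included the Mediator gene mdt-26 (95 bp downstream), cyn-8 (22 bp), the centromere gene knl-2 (39 bp), nhr-25 (130 bp) and clec-266 (47 bp). Relative to protein-coding genes, 207 summits lay outside any gene, 37 in an intron, 11 in a UTR and 7 in a coding exon, and 21 of the 207 and 5 of the 37 were inside a non-coding gene or pseudogene.

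**Figure D3:**
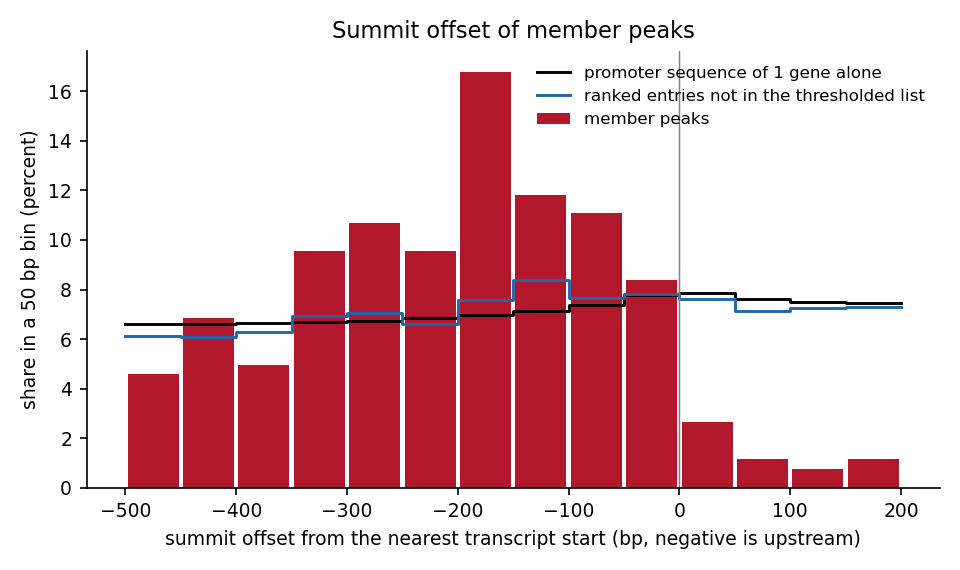
Share of member summits (bars), of promoter sequence that counts for 1 gene alone (black line) and of ranked entries not in the thresholded list (blue line) in 50 bp bins of offset from the nearest transcript start. The bars exceed both lines from 350 to 1 bp upstream and drop below 3% downstream of the start, where both lines stay above 7%.

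The limits of the rule cut through a continuous run of peaks on the upstream side. The outermost members were the most distal W01D2.3 peak at -493 bp (signal 138) and atgp-2 at -488 bp (67.1), and the nearest peaks beyond were at sms-3 at -501 bp, also over both replicate lists, and ptrn-1 at -509 bp (57.9). Downstream, Y17G7B.21 at 177 bp (62.8) and tsp-21 at 173 bp (45.6) were inside, and egl-27 at 208 bp (61.3) and his-32 at 224 bp (71.2) outside. The RNA filter fell in a gap: the members nearest to an RNA gene were zip-2 at 284 bp and F37F2.2 at 310 bp, and of the 45 summits in 1 promoter that it removed from 307 the farthest were F09G2.2 at 77 bp (signal 52.1) and wrt-3 at 76 bp (276).

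DNA at the summits was rich in G and C. The window of 50 bp on either side of the summit had a median GC content of 50.5% (quartiles 47.5 and 55.2), against 33.7% at the promoters of all 19783 genes, measured 186 bp upstream of the outermost start, and 35.4% in the nuclear genome. The ranked entries that met the rule but not the threshold had 40.6%. In 164 members (62.6%) the GC content exceeded 48.5%, the 95th percentile of all promoters. The highest values were 67.3% at pdi-2, a protein disulfide isomerase gene, 64.4% at myrf-1 and 62.4% at the endoplasmic reticulum HSP70 gene hsp-3, and the lowest were 33.7% at pck-2, 36.6% at lbp-4 and 37.6% at ecps-1, pcaf-1, rnh-2 and tomm-20. The peaks of no promoter were as rich, at 49.5%, as were shared promoters, at 49.5%, and peaks near RNA genes reached 53.5%, so a high GC content was not confined to members.

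The rise was narrow. Averaged over members, GC content was 54.7% at the summit and 37.6% at 600 to 900 bp, and it stayed above the midpoint of these values only within 25 bp of the summit on either side. The summit window was richer than both windows 400 bp away in 216 members (82.4%), against 46.2% of the ranked entries. CpG dinucleotides numbered 7.87 per window in members, 7.68 in shared promoters, 7.12 in peaks near RNA genes, 5.58 in peaks of no promoter, 4.24 in the ranked entries and 3.04 in all promoters. GC content did not order the members by height: Spearman's rho with the signal was 0.0958 over the 262 peaks, as a description. GC content can also change how many reads a library holds for a region, and its part in these calls was not tested.

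**Figure D4:**
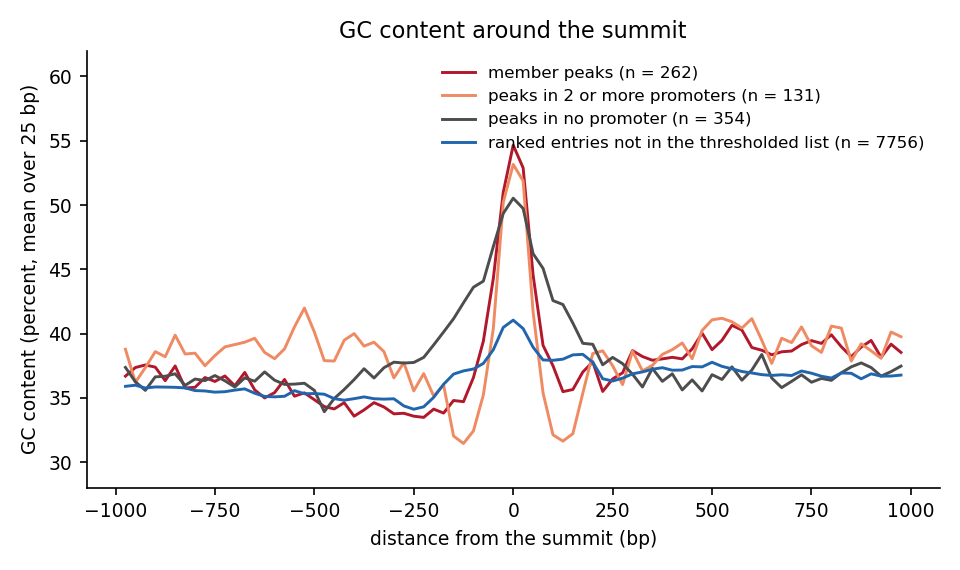
Mean GC content in percent (25 bp means, vertical axis not from 0) against distance from the summit, along the gene for members and ranked entries and along the genome for the other classes. Members rise from 37.6% at 600 to 900 bp to 54.7% at the summit.

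Certain short words recurred at the summits. The 5 words of 7 letters with the largest excess in members on chromosomes I to III over ranked entries there, leaving out words that overlap by 6 letters with one already taken, were counted on both strands. The first, GCCGCAC, was in 9.73% of members on chromosomes IV, V and X, which did not enter the choice, against 1.03% of the 3880 ranked entries there, and AATGCGC was in 6.19% against 1.42%. The word CTTGCGC was in 5.31% against 0.541%, the word TTGCAAA in 6.19% against 2.89%, and the word AGTGCGC in 9.73% against 1.21%. In all, 33 of the 113 members on these chromosomes (29.2%) held at least 1 of them, against 6.91% of the ranked entries. The words were chosen on the other members, so their share there (38.9% of 149 members) is no result. On the same chromosomes the share was 35.7% of the 56 peaks in shared promoters, 6.01% of peaks of no promoter, 2.97% of peaks near RNA genes and 5.79% of all promoters. Among windows there with GC content between the quartiles of the members, 19 of 63 members (30.2%) held a word, 7.93% of the ranked entries and 8.75% of peaks of no promoter.

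On chromosomes IV, V and X, windows with 2 or more of the words were 8 of 113 members (7.08%) and 12.5% of shared promoters, against 0.180% of the ranked entries and 0.238% of all promoters. Peaks of a replicate's own list that met the rule there, members or not, held a word in 34.6% of 52 in replicate 1. In replicate 2 the share was 32% of 75. By falling signal of all members, the share there was 9 of 20, 10 of 28, 4 of 28 and 10 of 37 in the 4 groups of 65 or 66 members. It was 34.6% on IV, 37.8% on V and 20% on X. The central 50 bp of the 113 members held 29.2 words per 100 windows and the bins on either side 8.85 and 13.3. Bins farther out ranged from 0.885 to 7.96, against 3.25 to 4.38 over all bins of the ranked entries there. Over all chromosomes, as a description only, the windows with 3 words lay at atx-2, K05C4.2, the peptidase gene F44E7.4, npp-18, ddp-1, nuo-2 and Y48G10A.2.

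On these chromosomes the word TTGCAAA lay 7 times on the strand of the gene and 0 times on the other, and GCCGCAC lay 2 and 11 times. Over all members the splits were 23 and 7 for the former and 11 and 29 for the latter. The same letters TGCGC end 3 of the 5 words, so they are not independent of each other.

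**Figure D5:**
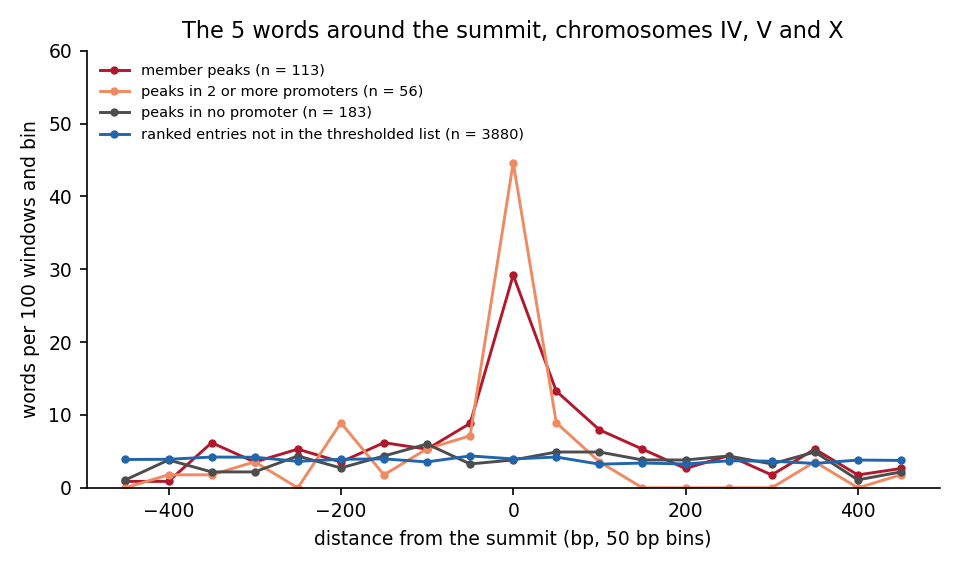
Occurrences of the 5 words per 100 windows in 50 bp bins of distance from the summit, along the genome, for members, peaks of shared promoters, peaks of no promoter and ranked entries on chromosomes IV, V and X, which were not used to choose the words. Members reach 29.2 and shared promoters 44.6 in the central bin, and peaks of no promoter 3.83.

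Motifs from a list of 16 known elements, searched on both strands within 75 bp of the summit, were counted next. The letters CGCG were in 62.6% of members and 61.8% of shared promoters, against 49.4% of peaks near RNA genes, 34.7% of peaks of no promoter, 23.7% of ranked entries and 15.99% of all promoters. An Sp1-like element (CNCCGCCC) was in 11.1% of members and 14.5% of shared promoters, against 3.27% of peaks near RNA genes, 2.54% of peaks of no promoter and 1.84% of all promoters. The TATA box letters TATAAA were in 6.11% of members, 7.63% of shared promoters, 3.67% of peaks of no promoter and 9.82% of peaks near RNA genes. Ranked entries held them in 14.2% and all promoters in 19.3%. The T-block TTTTTTT was in 15.3% of members, 23.7% of shared promoters, 12.4% of peaks of no promoter and 13.1% of peaks near RNA genes. Ranked entries held it in 26.3% and all promoters in 33.1%, so neither low share was confined to members. GAGAGA was in 23.7% of members but in 31.1% of peaks of no promoter. The B box core of tRNA genes (GTTCNANNC), found in 78.6% of peaks near RNA genes, was in 4.96% of members and 4.53% of all promoters. A match of letters is a description and not a binding site.

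Some members shared longer stretches of sequence with one another. Windows of 28 members shared an identical run of 20 bases or more with the window of another member that did not overlap it, and these formed 9 groups. A group of 6 held atad-3, npp-6, eel-1, rps-24, Y62F5A.12 and enu-3.3, with runs of up to 64 bases and signals of 49.2 to 200.5. A second group of 6 held F44E7.4, mtcu-2, npp-18, unc-85, T02E1.2 and Y48G10A.2, also with runs of up to 64 bases and signals of 65.2 to 130, and 5 of these 6 windows held a word. Another group, of F13H8.2, cacn-1 and tut-2, had signals of 51.99 to 57.5 and none over both replicate lists. Reads from such copies can be hard to place, and how the authors' alignment treated them was not stated.

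Repeated sequence was about as frequent in members as in ranked entries. A run of 20 bases with 10 or more copies in the genome was in 25 member windows (9.54%), 10.5% of ranked entries and 8.05% of all promoters, against 30.2% of peaks of no promoter and 75% of peaks near RNA genes. On chromosomes IV, V and X, 31 of the 104 members without such a run (29.8%) held a word, and of the 103 outside the 9 groups 30 (29.1%) did. Soft-masked bases made up 16.5% of member windows and 35.7% of all promoter windows.

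Short non-coding RNA genes outside the 4 filtered classes lay under some members. The summit of 26 members (9.92%) was inside such a gene or a pseudogene, 25 of them of the annotated class ncRNA, against 2.64% of ranked entries and 2.63% of all promoter windows. They included T13C5.6 (in C14F11.14), ZK816.3 (in ZK816.8) and pcrg-1 (in mrpr-1), 3 of the 12 strongest members. For these peaks the protein-coding gene and the non-coding gene cannot be told apart as the owner of the signal.

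Members were spread over all nuclear chromosomes but not evenly per length of eligible sequence. They numbered 22.4 per Mb on I, 20.3 on II, 24.96 on III and 21.8 on X, against 9.74 on IV and 9.78 on V. Each replicate list showed fewer on IV (12 and 15 members) than on III (26 and 34). On the autosomes the outer parts, beyond the central 50% of each, had 15.01 per Mb and the centres 17.1. Member genes were longer than other genes, with a median of 2992 bp against 2033 bp, and 42.4% had 2 or more transcript starts against 27.6%. The sequence that counts for 1 gene alone had the same median, 701 bp, in member genes and in all genes. This is the length of 1 full promoter window, so the equal medians do not show how much sequence further starts added. The nearest upstream gene was divergent for 132 of 257 member genes (51.4%) against 41.9% of all eligible genes, at a median distance of 1057 bp against 1076.5 bp.

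Neither gene of the transgene was a member. The promoter of baz-2 (III, 7650553 to 7656032) held no peak of the list, and the nearest summit was 115172 bp away. At unc-119 (III, 10902641 to 10908935) the nearest was 53599 bp away, and its promoter held 2 entries of the ranked list with a signal of up to 20.1.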

How the data were processed

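FLT-1 binding was read from peak lists of 2 biological replicates in 1 group and of both together, on the ce11 assembly per the deposited file lists. The deposited peak signal and score (whole numbers up to 1000) are the authors' values, and no label or file list gives the scale of the signal. The deposited −log10 IDR (irreproducible discovery rate) column of the ranked lists was checked and not used in results. Aligner and peak caller: not given in the sources used here. With no read counts the depth is unknown.

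Summits were set against transcript starts of Ensembl release 115 on WBcel235, with names and sequence from RefSeq. The members and lists were chosen with earlier results of these data known. Named genes are the 12 strongest and 5 weakest members, up to 5 per gene list, genes with 2 or more members, those nearest each limit, the 5 strongest over neither replicate list, the 3 largest rank gaps each way and the 3 highest and lowest in GC, with ties; others were chosen after their values were seen. Overlaps needed 1 bp. The word choice and the shared runs were added after first results. With 1 group, every value is a description with no test. Alternatives changed the promoter window, RNA filter, list, replicates and GC window. The classification, overlap and word steps were tested on simulated data. Python 3.11.15, NumPy 2.4.6, SciPy 1.17.1 and Matplotlib 3.10.9 were used.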

Additional observations from a re-analysis of the deposited data

How the results depend on the processing

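Over 7 results, 49 values under alternatives stayed within the spread between the replicate lists (counts within 1.5 times) and 34 moved. Only the median offset could have changed sign, and it stayed negative. The 262 members of 257 genes became 111 of 109 at or above the median signal, and 126 to 179 members of 125 to 178 genes by a replicate's own list. The median offset of -186 bp was -126 bp with 250 bp on either side of the start, -267 bp with 1000 bp upstream, -193 bp without the RNA filter or at or above the median signal, -170 bp when exclusive among all annotated genes, and -193 to -188 bp by a replicate's own list. Of alternatives chosen after seeing the data, narrower members gave -251.5 bp, members over both replicate lists -192 bp and members not overlapping another peak -182 bp. The share upstream (94.3%) was 87.3% with 250 bp on either side, 93.4% from the outermost start, 93.5% without the RNA filter, 98.2% at or above the median signal, 100% of narrower members, 97.3% over both lists, and 94.4% to 95.5% by a replicate's own list. The median signal of 70.6 was 95.6 at or above the median of the list and 41.5 to 50.3 in the replicate lists. Whether the lists share a scale is not described. The share over both lists (28.6%) was 64.0% at or above the median signal and 41.9% to 57.9% by a replicate's own list. The median GC content (50.5%) was 51.5% without the RNA filter, in the conservative list, at or above the median signal, in narrower members and over both lists, 50.5% to 51.5% by a replicate's own list, 44.3% over the whole peak and 41.5% within 150 bp of the summit. Causes were not tested, except that a wider GC window takes in the flanks and a wider promoter window admits farther summits by construction. By construction as well, a cut at the median signal raises the median signal. Each peak of a replicate's own list also lies over that list, so its share over both is not like the share of the pooled list. No paired analysis was possible because there was 1 group. Depth is unknown, so no limit that needs read counts was set.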

Other observations

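Of 175 ranked entries with a score at or above the lowest of the thresholded list (831) that were not in that list, 2 met the rule for members. Their signals were 107 and 455, the second above every member, and neither overlapped a thresholded peak of both replicates. Their median GC content was 31.2%.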
